A study of Mus musculus with 4 samples.

Results

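The genes described here are 42 genes of mitosis and of the G2/M transition, taken from a list of symbols and measured by the array probe sets that the platform annotation pairs with exactly 1 symbol. Of the 42 genes, 41 had such a probe set and all 41 passed the filter on dim probe sets, with 77 of their 92 probe sets above it, out of 12920 genes tested in all. Ccnb1, the cyclin B1 gene, is not analysed here, because no probe set carried its symbol alone. The samples were 4 cultured lines of mesenchymal stem cells (MSC), plastic-adherent stromal cells that can form bone, fat and cartilage. All were from C57BL/6 mice, with 2 lines from bone marrow and 2 from flushed colon, 1 array per line, and no line carried a treatment or an engineered allele according to the labels. Cells were freed with collagenase type I, grown in low glucose DMEM with HEPES and 10% FBS, and lysed somewhere between passages 5 and 10. Cultures were split at a confluency of 90 to 100%, and the labels do not say at which passage or density each line was lysed, nor whether the lines of a tissue came from separate animals. The p-values therefore measure only the spread between these 4 lines.

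Genes of this list are switched on together late in the cell cycle. CDK1 with its cyclins starts mitosis, the Polo and Aurora kinases build the spindle, the kinetochore and the spindle checkpoint hold chromosomes until they are attached, and the anaphase-promoting complex then destroys cyclin B and lets the cell divide. In resting cells most of them are held off by the DREAM complex, which binds the CHR element, and in dividing cells they are driven through the same promoters by B-MYB, FOXM1 and NF-Y, the last of which binds CCAAT boxes. Their summed transcripts are widely read as a measure of the fraction of dividing cells. In bulk RNA, fewer cells of a type and less RNA per cell cannot be told apart.

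Not every gene of the list has both CHR and CCAAT letters, which stood together in 23 of the 34 genes searched. The promoters below are examples that carry both. They are the 100 bases before the listed transcript start, from RefSeq (GRCm38.p6), 5′ to 3′ on the gene's strand, with matches to CHR (TTTGAA or TTTAAA) and to CCAAT on either strand in capitals. The first 5 belong to genes that differed between the colonic lines, and the last belongs to Bub3, which did not follow them and is shown at 1 of its 2 listed starts.
Cdk1, chr10:69352913-69353012, minus strand: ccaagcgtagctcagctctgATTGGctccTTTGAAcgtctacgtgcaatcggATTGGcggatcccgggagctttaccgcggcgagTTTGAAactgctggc
Cdc20, chr4:118437344-118437443, minus strand: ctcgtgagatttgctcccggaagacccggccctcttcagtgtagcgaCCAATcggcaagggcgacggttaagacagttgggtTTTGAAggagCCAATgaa
Top2a, chr11:99024190-99024289, minus strand: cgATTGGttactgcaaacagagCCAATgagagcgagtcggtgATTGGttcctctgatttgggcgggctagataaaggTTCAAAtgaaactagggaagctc
Kif11, chr19:37376282-37376381, plus strand: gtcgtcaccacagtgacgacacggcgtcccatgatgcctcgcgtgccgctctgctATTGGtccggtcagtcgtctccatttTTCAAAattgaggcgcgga
Ube2c, chr2:164769829-164769928, plus strand: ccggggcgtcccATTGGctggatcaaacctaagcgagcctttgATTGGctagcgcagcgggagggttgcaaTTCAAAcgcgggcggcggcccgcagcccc
Bub3, chr7:131560270-131560369, plus strand: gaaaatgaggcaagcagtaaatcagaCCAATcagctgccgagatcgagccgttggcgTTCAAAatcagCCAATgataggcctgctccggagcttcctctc

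RefSeq promoter windows of 300 bases, 250 before and 50 after the start, were found for 34 of the 41 genes. TTTGAA occurred on either strand in a window of 25 of the 34, against 20.2% of all 27025 genes with a window. TTTAAA, which reads the same on both strands, occurred in 8 of 34, against 14.9%. CCAAT occurred in 27 of 34, against 41.1%, and at least 2 copies in 1 window occurred in 18 of 34, against 13.3%. A CHR match of either form together with CCAAT stood in 23 of 34, against 12.2%. The E2F-like letters TTTNNCGC were in 4 of 34, against 5.93%. Motifs were searched separately, so matches may overlap, and a match of so few letters is not a binding site. Bub3 has both motifs in the stretch shown, but a second start is listed for it, and the 100 bases before that one hold 0 matches. The 300-base window of that second start does hold both, with TTTGAA at -167 and CCAAT at -198 and -156.

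The question put to the arrays was whether mitosis genes differ between colonic and bone marrow MSC in culture. The lines did not divide by tissue. In 40 of the 41 genes colonic replicate 1 had the lowest intensity of the 4 arrays, a position it held in 28.8% of all genes tested. Colonic replicate 2 was the highest of the 4 in 29 of the 41, against 22% of all genes. In 36 of 41 genes colonic replicate 1 was at least 2-fold below colonic replicate 2 (a log2 difference of 1 or more on the scale log2(intensity + 13.7)), against 6.23% of all genes tested. In 30 of 41 it was at least 2-fold below each of the other 3 arrays, against 2.35% of all genes. The reverse, colonic replicate 1 at least 2-fold above colonic replicate 2, occurred in 0 of 41 genes and in 7.37% of all genes. With 1 array per line, differences between lines have no replicate check, and these counts describe the 4 libraries. The pattern was noticed in the data and then counted.

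**Figure D1:**
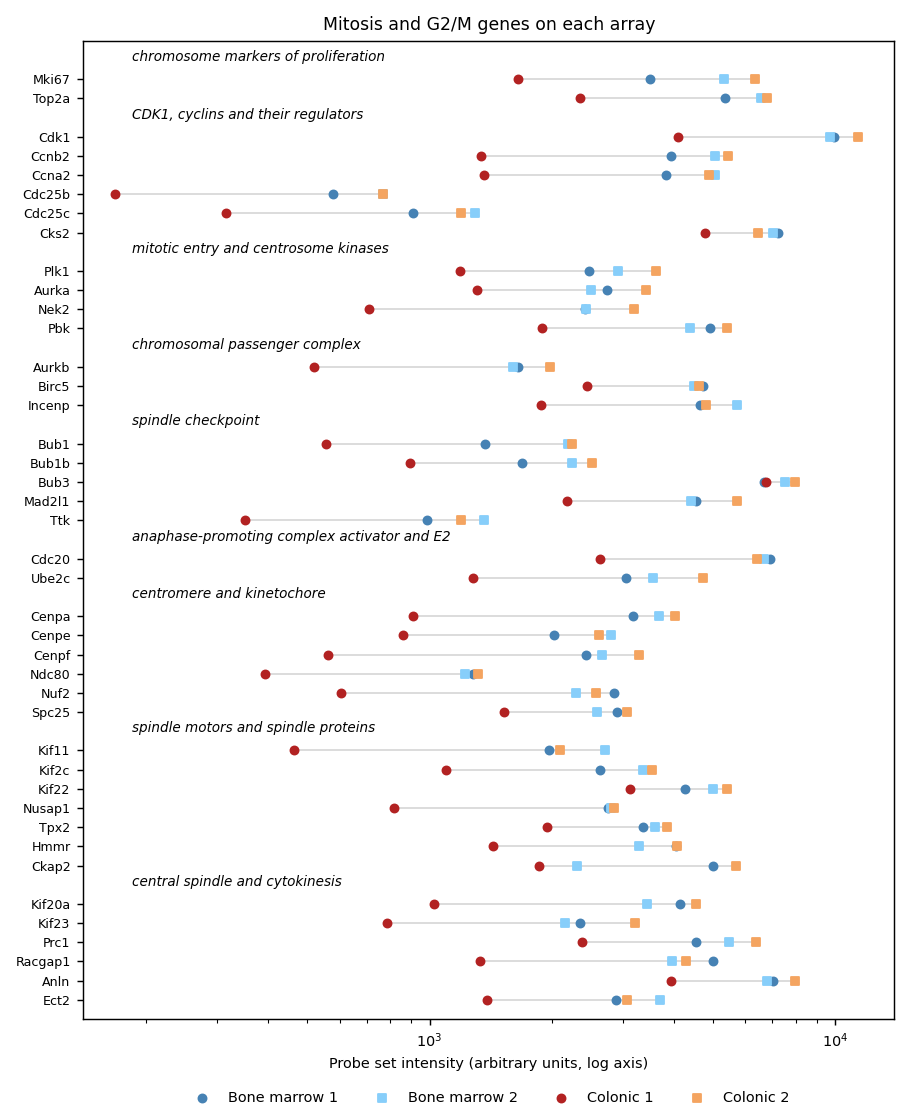
Probe set intensity (arbitrary units, log axis) of each of the 41 mitosis genes on the 4 arrays, ordered by role; blue points are the bone marrow lines and red and orange points the colonic lines. The red point, colonic replicate 1, is the leftmost in 40 of 41 genes, the exception being Bub3.

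Mki67 and Top2a are the usual markers of dividing cells, the first coating mitotic chromosomes and the second untangling their DNA. Mki67 had intensities of 3494 and 5309 in bone marrow replicates 1 and 2 and of 1657 and 6348 in colonic replicates 1 and 2. For Top2a the marrow lines gave 5350 and 6558 and the colonic lines 2355 and 6789. In both genes the colonic lines were the lowest and the highest array, so that the tissues overlapped. The log2 difference of colonic minus bone marrow was -0.41 ± 0.69 (SE) for Mki67 and -0.56 ± 0.53 (SE) for Top2a. With limma neither difference was beyond the spread of the lines (adjusted p = 0.983 and 0.976).

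Of the genes of CDK1, its cyclins and their regulators, 6 were measured and 5 were at least 2-fold lower in colonic replicate 1 than in colonic replicate 2. Cdk1, the kinase that triggers mitosis, was at 9962 and 9720 in the marrow lines and at 4095 and 11363 in colon. Ccnb2, cyclin B2, was at 3933 and 5046 in the marrow lines and at 1337 and 5449 in colon. Ccna2, cyclin A2, which serves both S phase and G2, was at 3819 and 5043 against 1362 and 4893. In each of these genes the bone marrow lines and colonic replicate 2 lay close together and colonic replicate 1 far below. Cdc25c, a phosphatase that activates CDK1, was at 909 and 1294 in the marrow lines and at 315 and 1199 in colon. Its relative Cdc25b was at 168 in colonic replicate 1 and at 769 in colonic replicate 2. Cks2, a small subunit bound to CDK1, stood apart, its marrow lines being at 7229 and 7041 and its colonic lines at 4778 and 6453. It was lower in both colonic lines, without overlap, and its colonic lines differed by 1.35-fold only.

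The mitotic entry kinases were all lowest in colonic replicate 1. Plk1, the Polo kinase, was at 2476 and 2916 in the marrow lines and at 1187 and 3607 in colon. Nek2, a kinase that splits the centrosomes, was at 2413 and 2426 in the marrow lines and at 711 and 3200 in colon, a 4.50-fold ratio of the colonic lines. Pbk was at 4924 and 4386 against 1895 and 5399, and Aurka, the spindle pole Aurora kinase, showed a 2.61-fold ratio of colonic replicate 2 over colonic replicate 1. In all 4 genes colonic replicate 2 was the highest array.

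The chromosomal passenger complex corrects wrong attachments and later guides cytokinesis. Its kinase gene Aurkb was at 1649 and 1607 in the marrow lines and at 519 and 1986 in colon. Incenp, the scaffold, was at 4636 and 5737 against 1880 and 4807. Birc5, survivin, was at 4718 and 4495 against 2448 and 4606, and its colonic ratio of 1.88 was among the smallest of the list. All 3 subunit genes were lowest in colonic replicate 1, Birc5 least so.

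Among the spindle checkpoint genes, 4 of 5 were at least 2-fold lower in colonic replicate 1 than in colonic replicate 2, and the fifth was Bub3. Bub1, a checkpoint kinase, was at 1372 and 2198 in the marrow lines and at 556 and 2239 in colon. Ttk, the kinase MPS1 that starts the checkpoint, was at 988 and 1366 against 350 and 1198. Mad2l1, which inhibits CDC20, was at 4531 and 4406 against 2187 and 5735, and Bub1b, the BUBR1 gene, had a colonic ratio of 2.80. Bub3, which carries BUB1 and BUBR1 to kinetochores and also binds chromatin outside mitosis, was at 6676 and 7524 in the marrow lines and at 6756 and 7947 in colon, a 1.18-fold ratio of the colonic lines. Its other probe sets above the filter differed between the colonic lines by 0.22 and -0.06 on the log2 scale, against 0.23 for the brightest. Within 1 complex, Bub3 was thus level across the lines while its partners Bub1 and Bub1b were not.

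Cdc20, the activator of the anaphase-promoting complex, was at 6902 and 6674 in the marrow lines and at 2638 and 6435 in colon. By this probe set, an _x_at one, both colonic lines were below the marrow lines, colonic replicate 2 only just. In its other 2 probe sets above the filter colonic replicate 2 was the highest array, at 4395 against 4356 and 4323 in the brighter of them. Ube2c, the E2 enzyme of that complex, was at 3057 and 3556 against 1279 and 4726, the highest value again in colonic replicate 2. By their brightest probe sets Cdc20 and Cks2 were the 2 of 41 genes without overlap between the tissues, both lower in colon, where 15.1% of all genes tested had that order and 33.5% had no overlap in either direction. With the mean of probe sets the tissues overlapped in Cdc20, and Cks2 was the only one left.

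All 6 centromere and kinetochore genes were at least 2-fold lower in colonic replicate 1 than in colonic replicate 2, with a median log2 difference of 1.89, the largest of the role groups with at least 3 genes. Cenpa, the histone variant that marks centromeres, was at 3179 and 3681 in the marrow lines and at 911 and 4020 in colon. Ndc80 and Nuf2 form the microtubule-binding arm of the kinetochore. Ndc80 was at 1277 and 1223 against 392 and 1313, and Nuf2 at 2843 and 2300 against 606 and 2573. In both genes 3 arrays were nearly level and colonic replicate 1 stood more than 3-fold below colonic replicate 2. Cenpf had the widest colonic ratio of the list, 5.85-fold, with 563 in colonic replicate 1 and 3290 in colonic replicate 2. Cenpe, a kinetochore motor, had a ratio of 3.06. Spc25, which joins the same arm to the centromere, had only a 2.02-fold ratio.

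Spindle motors and spindle proteins were more mixed, with 5 of 7 genes at least 2-fold apart by their brightest probe sets. Kif11, the motor that pushes the spindle poles apart, was at 1970 and 2714 in the marrow lines and at 463 and 2102 in colon, and had the largest tissue difference of the list, -1.21 ± 0.77 (SE) on the log2 scale. Nusap1, a microtubule bundler, was at 2757 and 2795 against 819 and 2858. Hmmr, a spindle pole protein, was at 4054 and 3277 against 1434 and 4071. Kif2c, a microtubule depolymerase, had a colonic ratio of 3.21. The smaller ratios were those of Kif22 (1.74), a chromosome arm motor, and of Tpx2 (1.97), the activator of Aurora A. Their other probe sets above the filter gave 3.73 and 3.79 for Kif22 and 2.78, 1.86 and 2.01 for Tpx2. Ckap2 was the only gene of the 41 in which the bone marrow lines differed by at least 2-fold, with 5010 in replicate 1 and 2306 in replicate 2, and 11% of all genes tested did so.

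All 6 central spindle and cytokinesis genes were at least 2-fold apart between the colonic lines. Kif20a, a motor of the central spindle, was at 4141 and 3443 in the marrow lines and at 1027 and 4528 in colon. Racgap1, a subunit of centralspindlin, was at 4993 and 3970 against 1330 and 4280. Ect2, the exchange factor that starts the cleavage furrow, was at 2877 and 3692 against 1388 and 3065. Kif23, the motor partner of Racgap1, had a ratio of 4.07, Prc1, which bundles the midzone, 2.69, and Anln, anillin, 2.02, just past the limit.

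**Figure D2:**
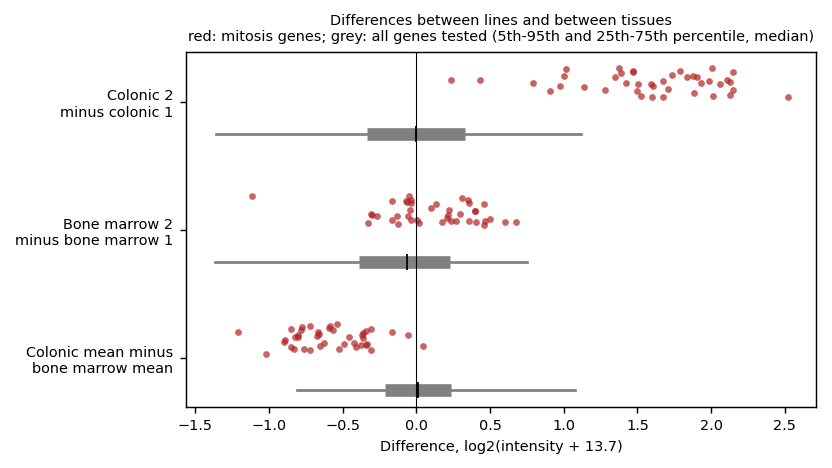
Differences on the log2(intensity + 13.7) scale between the 2 colonic lines, between the 2 bone marrow lines and between the tissue means; each red point is 1 of the 41 mitosis genes and grey bars give the percentiles of all 12920 genes tested. The mitosis genes lie to the right of 0 in the first row, with a median of 1.61, and around 0 in the second, with a median of 0.13.

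Over the list, the median log2 difference of colonic replicate 2 over colonic replicate 1 was 1.61 (range 0.23 to 2.52), and the median ratio of intensities was 3.06. Over all genes tested the bulk lay near 0, with 6.23% at 1 or more. The bone marrow lines differed by a median of 0.13 (range -1.11 to 0.67), with bone marrow replicate 2 slightly the higher. Colonic replicate 2 exceeded both bone marrow lines in 29 of 41 genes (33.3% of all genes tested), lay between them in 10 (37.5%) and was below both in 2 (29.2%). Set against the bone marrow mean it was higher by a median of 0.20 on the log2 scale. The 3 arrays other than colonic replicate 1 were within 2-fold of each other in 40 of the 41 genes, as in 81.4% of all genes tested.

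The comparison of tissues found no difference in a mitosis gene beyond the spread of the lines. The log2 difference of colonic minus bone marrow was negative in 40 of 41 genes (48.5% of all genes tested), with a median of -0.59, against 0.01 over all genes. With limma, 0 of 41 genes passed an adjusted p of 0.05 (0% of all genes tested), and 0 of 41 had an unadjusted p below 0.05, against 6% of all genes tested. Below an adjusted p of 0.1 lay 0 of 41, against 0.379%. Adjusted p-values from limma ran from 0.946 to 0.996 over the list and unadjusted ones from 0.109 (Cks2) to 0.933 (Ckap2). At least 2-fold lower by the mean were 2 of 41 genes, Kif11 and Nuf2, and 3.51% of all genes. The median standard error was 0.59 on the log2 scale in the list and 0.32 over all genes. The tissue difference rested on 1 line: without colonic replicate 1 the median was 0.20 and 6 of 41 genes were negative, and without colonic replicate 2 it was -1.37 and all 41 were.

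Several probe sets of a gene gave a check within the array. For 24 genes several probe sets lay above the filter. In 23 of them every such probe set was lower in colonic replicate 1 than in colonic replicate 2, and in 16 every one was at least 2-fold lower. Over single probe sets, 63 of 77 were at least 2-fold lower, beside 1518 of all 23138 probe sets tested. In 18 of the 24 genes a dimmer probe set had a larger difference than the brightest one. Kif22 was one of them, with 3122 and 5422 in the colonic lines by its brightest probe set and 367 and 1368 by the next. The brightest probe set ended in _x_at or _s_at, the mark of possible cross-hybridisation to other transcripts, in 9 of 41 genes. A dim probe set each of Hmmr, Spc25 and Cenpf did not follow the others, at 66.2 and 68.6, at 119 and 126 and at 129 and 161 in colonic replicates 1 and 2.

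**Figure D3:**
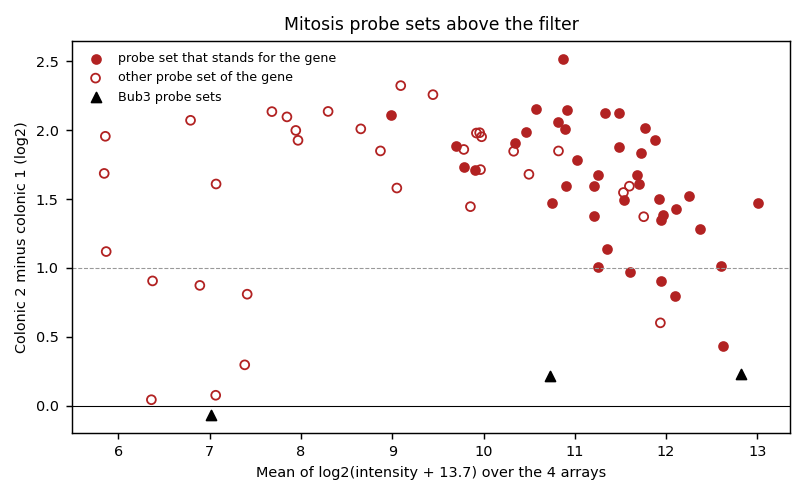
Log2 difference between the colonic lines against the mean log2 level over the 4 arrays for the 77 probe sets above the filter; filled points are the probe sets that stand for a gene, open points its others, and triangles are Bub3. Of these probe sets 63 lie on or above the dashed line at 1, and the 3 Bub3 probe sets lie between -0.06 and 0.23.

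Other mitosis genes, 100 in 6 lists chosen for their roles, extended the description to 99 tested genes. With limma 0 of the 99 rose and 0 fell at an adjusted p of 0.05. An unadjusted limma p below 0.05 was found for 0, against 6% of all genes tested. Colonic replicate 1 was at least 2-fold below colonic replicate 2 in 56 of the 99, beside 6.23% of all genes tested. The split by role was uneven. It was 11 of 15 for condensin and cohesin, which fold and hold chromosomes, 14 of 19 for other kinetochore and passenger genes, and 20 of 24 for other spindle and cytokinesis genes. It was 3 of 17 for subunits and inhibitors of the anaphase-promoting complex, and 2 of 8 for mitotic entry inhibitors and phosphatases.

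The members of these lists with the lowest p show both kinds. The cohesin genes Rad21 and Smc3 had colonic ratios of 1.77 and 1.70. Ska1, which tracks microtubule ends at the kinetochore, was at 793 and 654 in the marrow lines and at 163 and 612 in the colonic lines. Zwint, another kinetochore protein gene, was level between the colonic lines and above the marrow lines, at 5444 and 4306 against 6254 and 6354. Cdca3 and Cdca5 (sororin, which protects cohesin) had colonic ratios of 4.45 and 2.55. Fbxo5, the EMI1 inhibitor of the anaphase-promoting complex, was at 2334 and 2194 against 583 and 1952, whereas Cdc27, a core subunit, had a ratio of 0.883. Pkmyt1, an inhibitory kinase of CDK1, had a ratio of 2.57 and Arpp19, a phosphatase inhibitor, one of 1.08. Anapc4, another core subunit, was between 5840 and 6297 on all 4 arrays, and Cks1b, the close relative of Cks2, between 7002 and 7666. Anapc4 and Cks1b were named after their values were seen, as were Foxm1, Mybl2, Rbl1 and E2f4 in what follows.

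Regulators of mitotic transcription differed among themselves, with 6 of 16 at least 2-fold lower in colonic replicate 1, beside 6.23% of all genes tested. Foxm1, the forkhead activator of these promoters, was at 616 and 503 in the marrow lines and at 145 and 1130 in colon. That 7.82-fold ratio of the colonic lines was wider than in any of the 41 mitosis genes, and its other probe sets above the filter gave 7.07 and 9.30. Mybl2, the B-MYB gene, was at 155 and 410 against 115 and 423 by its brighter probe set, and its other probe set was level, at 124 and 115 in the colonic lines. Rbl1, the p107 pocket protein of the repressing complex, was at 1374 and 1063 against 641 and 2073. By contrast E2f4, the E2F of that complex, was between 303 and 337 on all arrays. The 2 genes of this list with the lowest p, E2f2 and E2f5, had log2 tissue differences of 0.68 ± 0.37 and -0.43 ± 0.29 (SE) and did not pass.

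Replication and G1/S genes overlapped in part. At least 2-fold lower in colonic replicate 1 than in colonic replicate 2 were 11 of 19, against 6.23% of all genes tested. The median log2 difference of the 19 was 1.14, against 1.61 for the mitosis genes. With limma 0 of the 19 rose and 0 fell at an adjusted p of 0.05. An unadjusted limma p below 0.05 was found for 1, Ccne1, against 6% of all genes tested. Ccne1, cyclin E1, was among the exceptions, at 935 and 752 in the marrow lines and at 2010 and 2192 in colon. Tyms, thymidylate synthase, was at 40.5 and 86.8 against 89.4 and 176 by a dim probe set. It too was lower in colonic replicate 1 than in colonic replicate 2, by a log2 difference of 0.88, short of the 2-fold limit. Of the 10 CDK inhibitors and D cyclins, 3 were at least 2-fold lower in colonic replicate 1, against 6.23% of all genes. Another 3 of the 10 were at least 2-fold higher in colonic replicate 1, against 7.37%. With limma 0 of the 10 had an unadjusted p below 0.05. Cdkn1a, the p21 inhibitor of cyclin-dependent kinases, was at 6378 and 436 in the marrow lines and at 20264 and 5824 in colon. Its intensity in colonic replicate 1 was 3.48-fold that of colonic replicate 2. Its other probe set gave 6404 and 4521, a ratio of 1.42, so the size of that difference depended on the probe set. By both probe sets Cdkn1a was highest in colonic replicate 1 and lowest in bone marrow replicate 2. The mitosis genes were lowest in colonic replicate 1 in 40 of 41 and mostly highest in colonic replicate 2. Any relation of Cdkn1a to them was not tested. Cdkn2c, the p18 inhibitor, was at 2988 and 4345 against 1077 and 2844, lowest in colonic replicate 1 but, unlike most mitosis genes, below both marrow lines in colonic replicate 2.

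**Figure D4:**
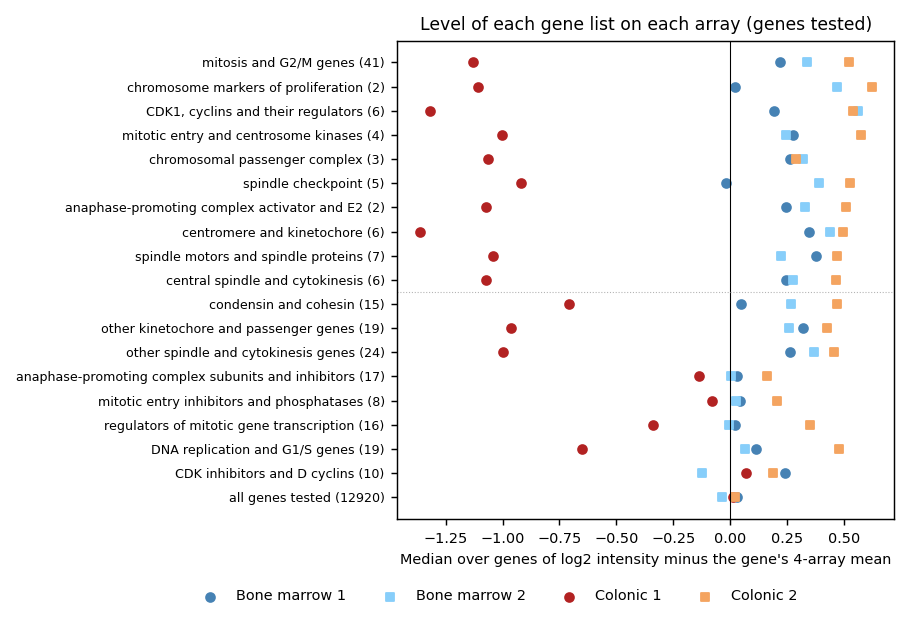
Median, over the genes of each list that were tested, of log2 intensity minus the gene's mean over the 4 arrays; each point is 1 array, and the number of genes stands in brackets. The 41 mitosis genes are at 0.22 and 0.33 in the marrow lines and at -1.13 and 0.52 in colonic replicates 1 and 2, while all genes tested lie between -0.04 and 0.03.

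The arrays themselves were alike in scale, with medians of 53.6 to 55.5 and upper quartiles of 608 to 655. The ratio of the 3′ to the 5′ control probe set, a sign of RNA integrity after amplification, was 1.44 to 1.60 for Gapdh, highest in colonic replicate 1, and 1.59 to 2.08 for Actb, highest in bone marrow replicate 2. Among the markers of MSC, Cd44 (4867 to 8532) and Itgb1 (5338 to 7839) were bright on all arrays. Thy1, however, was at 32.8 and 22.0 in the marrow lines and at 4516 and 9032 in colonic replicates 1 and 2. Of the same list, 3 genes were at least 2-fold higher in colonic replicate 1 than in colonic replicate 2, Alcam at 2140 and 37.0, Vcam1 at 2281 and 266 and Nt5e at 209 and 27.6, and Eng was lower, at 330 and 1035. The sum of the 9 of 10 MSC markers with a probe set ran from 20533 to 29717. Markers of other cells were summed over the brightest probe set of each gene. The blood cell list (8 of 12 genes with a probe set, 212 to 265) and the endothelial list (7 of 7, 118 to 258) were low throughout, Ptprc, the pan-leukocyte marker, was at 19.3 to 28.6, and Pecam1 at 1 to 2.48. The macrophage list (12 of 12) ran from 1203 to 3520, with 1888 in colonic replicate 1. In that list Cd53 was at 155 and 1333 in colonic replicates 1 and 2 (at most 15.7 in the marrow lines). Lyz2 was at 150 and 590 (1589 and 31.7 in the marrow lines). Only these 2 genes of it were, like the mitosis genes, at least 2-fold lower in colonic replicate 1. Of its other genes above the filter, Cd14 (963 and 573), Csf1r (324 and 244), Cd68 (74.0 and 55.8) and Itgam (73.0 and 54.6) were higher in colonic replicate 1. Fcer1g was at 43.2 and 59.6 in the colonic lines and at 640 and 59.0 in the marrow lines. The intestinal epithelial list (10 of 10) ran from 281 in colonic replicate 2 to 6541 in bone marrow replicate 1, carried by Krt19, with Epcam at 8.97 to 19.6, and Krt20 was at 889 in colonic replicate 1, against 15.9 to 29.4 elsewhere. The list of enteric glia, neurons and interstitial cells (8 of 9) was highest in colonic replicate 1, at 2142, and at 408 to 688 elsewhere. It was carried there by Ano1 (905), Uchl1 (814) and Tubb3 (328). Sox10 and Gfap were near the floor on all arrays (25.7 to 32.7 and 7.25 to 13.3). The part of these markers, of RNA integrity and of passage in the mitosis values was not tested.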

How the data were processed

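Amplified, biotin-labelled total RNA was hybridised to Affymetrix mouse arrays, per the labels' protocols. The deposited table holds linear intensities per probe set, judged from the values; how the authors summarised, background-corrected or scaled them is not given in the sources used here, and intensities of different probe sets are not amounts. Only probe sets with 1 symbol in the platform annotation were named (34945, with 932 having several, 9160 none and 64 controls left out). A pseudocount of 13.7, which is 0.25 of the overall median, was added before taking log2; this understates differences of dim genes. Probe sets passed above the 40th percentile of the mean log2 value (an intensity of 31.9), and a gene was represented by its brightest one. Colonic minus bone marrow was fitted in limma 3.58.1 under R 4.3.3 (intensity trend, 2 residual degrees of freedom, prior 2.53, Benjamini-Hochberg over 12920 genes, two-sided); an exact permutation test of 2 against 2 cannot go below p = 0.333. The procedure was tested on simulated data, with added differences larger than any tissue difference of the mitosis genes. That test does not show whether differences of their size would be found. The members, lists and role groups were chosen with earlier results of these data known. Values on every array are given for the classical markers and, in each role group, for up to 3 genes with the lowest p; other members were named for their ratios after these were seen. Alternatives were other normalizations, pseudocount, filters, the mean of probe sets, no trend, the replicate number as a block, and each array left out.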

Additional observations from a re-analysis of the deposited data

How the results depend on the processing

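The count of mitosis genes past an adjusted p of 0.05 with limma was 0 under every alternative run, including each probe set tested separately and a threshold of 0.1, and at most 1 gene passed 0.1, without colonic replicate 2. The count over all genes was 0, but it was 13 under quantile normalization, a pseudocount of 1 or no intensity trend, 12 for averaged probe sets, 15 for the 60th percentile filter and 17 for median centring; leaving out 1 array gave 0 to 33. The median log2 difference of the mitosis genes, -0.59, ranged from -1.37 (without colonic replicate 2) to 0.20 (without colonic replicate 1). Otherwise it moved by less than 0.59, the median standard error of a single gene's tissue difference. No error of the median itself was computed. Of the 41 mitosis genes, 34 changed the sign of their tissue difference without colonic replicate 1. The count was 2 (Bub3 and Ckap2) without bone marrow replicate 1, 1 (Bub3) without colonic replicate 2 and 0 under any other alternative run. By their brightest probe sets Cks2, Incenp, Cdc20, Kif11, Racgap1 and Ect2 stayed negative whichever array was left out. Without colonic replicate 1 they were at -0.14, -0.10, -0.077, -0.14, -0.057 and -0.088. By the next brightest probe set, Incenp, Cdc20 and Racgap1 were positive without that array, at 0.011, 0.018 and 0.16. Cks2 and Kif11 were negative by theirs, at -0.22 and -0.25, and Ect2 had no other probe set. What follows covers the genes that changed sign. For those given with values on every array, the lowest and highest log2 differences with 1 array left out were -1.37 and 0.56 for Mki67, -1.33 and 0.20 for Top2a, -1.26 and 0.21 for Cdk1, -1.73 and 0.29 for Ccnb2, -1.68 and 0.16 for Ccna2, -1.74 and 0.14 for Cdc25c, -1.17 and 0.42 for Plk1, -1.75 and 0.40 for Nek2, -1.29 and 0.22 for Pbk, -1.62 and 0.28 for Aurkb and -0.91 and 0.00014 for Birc5. They were -1.62 and 0.36 for Bub1, -0.069 and 0.16 for Bub3, -1.03 and 0.36 for Mad2l1, -1.69 and 0.044 for Ttk, -1.36 and 0.52 for Ube2c, -1.89 and 0.23 for Cenpa, -1.64 and 0.070 for Ndc80, -2.05 and 0.0090 for Nuf2, -1.75 and 0.042 for Nusap1, -1.34 and 0.16 for Hmmr and -1.86 and 0.26 for Kif20a. Genes without overlap between tissues were 2, with 1 by the mean of probe sets, where Cdc20 dropped out, 3 by quantile normalization and 6 to 40 with 1 array left out, where fewer arrays overlap less by construction. Tested singly, 5 of the 77 probe sets had no overlap, where 33.5% of all genes had none by their brightest probe set. The count of 36 genes at least 2-fold lower in colonic replicate 1 than in colonic replicate 2 was 34 with quantile normalization, 36 with median centring or a pseudocount of 1 and 37 with the mean of probe sets, and the 40 genes lowest in colonic replicate 1 were 40 or 41, alternatives chosen after seeing the data. With the replicate number as a block, 0 genes passed and the median stayed at -0.59; same-numbered arrays deviated together only weakly (r = 0.11 over genes, which are not independent), and the labels do not say that a number marks a shared batch. Another background correction and a slide block were not run, since only a value table was used. Precision is limited by having 4 arrays.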

Other observations

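Some genes of the other lists differed little between the colonic lines by their brightest probe set, beside Bub3, Cks1b, Zwint and Anapc4. Rrm2, the regulated subunit of ribonucleotide reductase, was at 10695 and 7968 against 7795 and 9328, still lowest in colonic replicate 1. Prim1, a primase subunit, was by contrast at 3686 and 3216 against 1026 and 4162. Pttg1, securin, was at 6694 and 4708 in the marrow lines and at 5306 and 6582 in colon, while Espl1, the separase that it holds, was at 1505 and 1503 against 456 and 1479. These genes were chosen after their values were seen.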
